A study of Mus musculus with 6 samples.

Results

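The genes examined here were 10 components of the insulin-like growth factor (IGF), insulin and mechanistic target of rapamycin (mTOR) pathway: Igf1, Igf1r, Igf2r, Insr, Irs1, Akt1, Mtor, Rptor, Rictor and Tsc2. Their rows were taken by symbol alone from the gene column of the expression table, and all 10 were found among its 14016 rows. The choice of genes was made with earlier results of these data known. The RNA came from injured mouse quadriceps 7 days after volumetric muscle loss, an operation that removes a piece of the muscle belly. One group was WT C57BL/6 mice (3 samples) and the other was ΔdblGATA mice (3 samples), which the labels call GATA-1 mutant and which lack eosinophils. No animal in either group received an implant, and the study's methods describe its control wounds as filled with sterile saline. The methods give the WT animals as 10- to 12-week-old females, and the age of the ΔdblGATA animals was not given in the sources used here.

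In skeletal muscle, IGF-I and insulin bind receptor tyrosine kinases that phosphorylate IRS adaptor proteins, and these recruit phosphoinositide 3-kinase (PI3K). The lipid it makes brings AKT to the membrane, and active AKT inhibits the TSC complex, which otherwise holds the small GTPase RHEB inactive. RHEB activates mTOR complex 1, which promotes protein synthesis and restrains autophagy, while mTOR complex 2 phosphorylates AKT. The pathway is known for its part in muscle growth and in the regeneration of fibres after injury.

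The value given for each gene is the authors' mean log2 CPM (read counts scaled to a common library size), referred to below as its level. It is 1 number per gene that pools mice, and values per mouse were not analysed here. No spread therefore stands behind any level, the genotypes were not compared, and no neighbouring genes in an order of levels can be said to differ beyond their spread. The pooled level carries no direction between WT and ΔdblGATA mice. The samples behind it are not named in the table, and it is not known whether they were these 6 alone. The sample codes in the labels are not consecutive between the groups, and 1198 genes had a level under 0 although the study's filter required more than 1 CPM in at least 3 samples. Whether samples of other groups entered the mean was not tested. Library depth is unknown for the same reason. In whole muscle, fewer cells of a type and less RNA per cell cannot be told apart.

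Most of the growth signalling genes were well represented in the pooled means, and Tsc2 was not. The levels of the 10 genes had a median of 5.56, against 4.03 for all 14015 genes with a symbol, and 8 of the 10 lay above that median. Igf2r was the highest at 7.47 and Tsc2 the lowest at −1.07, a span of 8.54 on the log2 scale. Without Tsc2 the remaining 9 genes spanned 3.44. Igf1, Igf2r, Insr, Akt1, Mtor and Rptor were above the upper quartile of all genes, 5.36. Rictor, at 4.03, sat just under the median of all genes when more digits were kept.

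**Figure D1:**
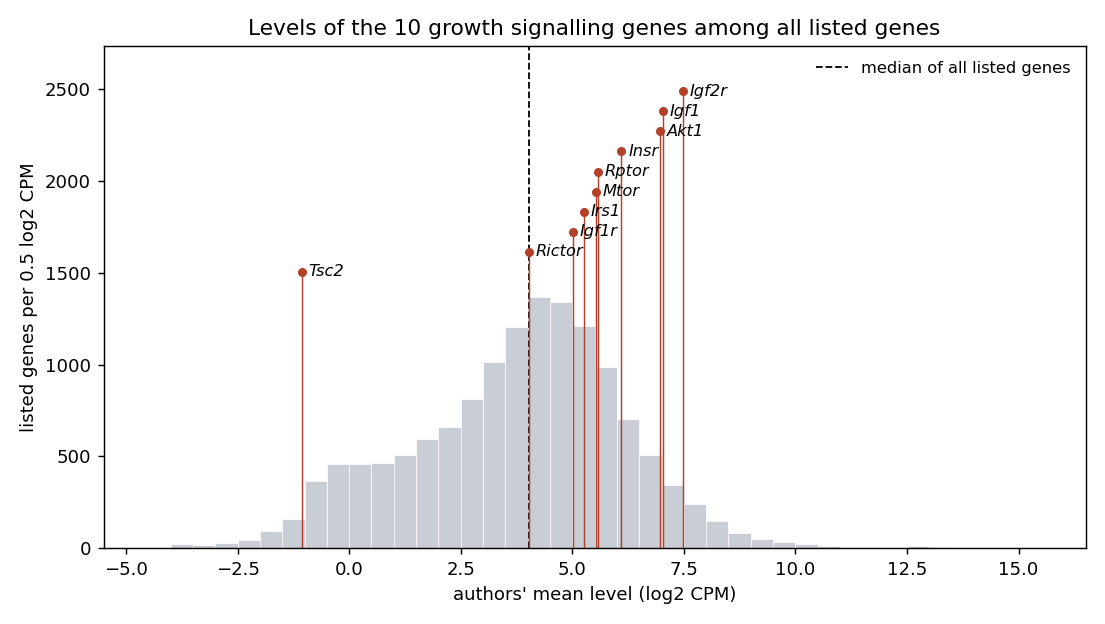
Histogram of the authors' mean level (x axis, log2 CPM) for all genes with a symbol (y axis, genes per 0.5 log2 CPM), with a red line and point for each of the 10 genes (the height of a point has no meaning) and a dashed line at the median of all genes, 4.03. Tsc2 stands alone at −1.07 in the lower tail, Rictor lies on the median, and the other 8 genes fall between 5.01 and 7.47.

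Counts rise with transcript length, so levels of different genes were compared after subtracting the log2 length, in kilobases, of the longest coding transcript, which gives log2 CPM per kilobase. This step mattered for these genes because they were long: their median length was 8725.5 nucleotides against 3139 for all genes, and 9 of the 10 exceeded that value. Per length, 6 of the 10 lay above the median of all genes, 2.28 log2 CPM per kilobase. The order from high to low was Akt1, Igf2r, Igf1, Insr, Rptor, Mtor, Irs1, Igf1r, Rictor and Tsc2. The fall from Akt1 (5.55) to Rictor (0.81) covered 4.74 on this scale, and Tsc2 (−3.72) lay a further 4.52 below Rictor. Tsc2 was last, and Rictor next to last, under each of the 4 definitions of gene length that were tried.

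**Figure D2:**
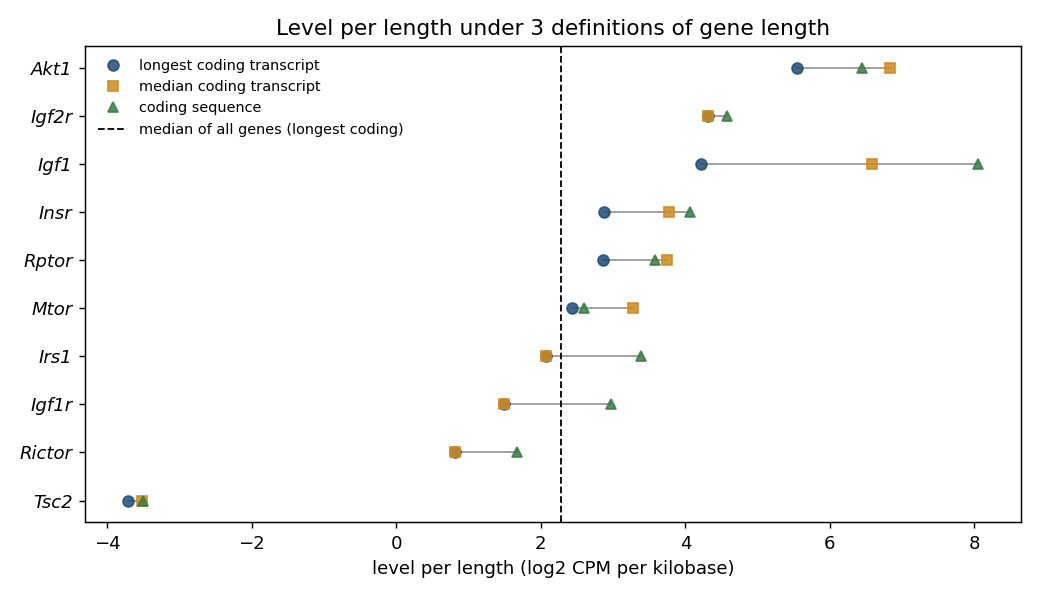
Level per length (x axis, log2 CPM per kilobase) of the 10 genes (y axis, ordered by the longest coding transcript), computed with 3 lengths: the longest coding transcript (circles), the median coding transcript (squares) and the coding sequence (triangles), joined by a grey line. The dashed line is the median of all genes with the longest coding transcript, 2.28. Igf1 moves most with the definition, from 4.22 to 8.05, and Tsc2 stays last between −3.72 and −3.51.

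Igf1 encodes IGF-I, the secreted growth factor that starts signalling through the IGF-I receptor. Its level was 7.03, a geometric mean of 131 CPM, and it ranked 954 of 14015 genes, above 93.2% of them. The gene occupies chr10:87858265-87937042 on the plus strand (GRCm38). Its per-length level of 4.22 log2 CPM per kilobase rests on a longest coding transcript of 7052 nucleotides. With the median coding transcript of 1367.5 nucleotides the value was 6.58, and with a coding sequence of 495 nucleotides it was 8.05, which put Igf1 above Akt1. Of the 10 genes, Igf1 had the value that depended most on the transcript assumed.

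The wider ligand list held the growth factors and the binding proteins that carry them in tissue fluid and blood. Of its 12 genes, 9 had a row, and 7 of those were above the median of all genes both by level and per length. The highest per length were Igfbp7 (7.03) and Igfbp5 (6.91), an IGF-binding protein made by muscle cells and fibroblasts, in log2 CPM per kilobase. The lowest were Igfbp2 (1.58) and Igfals (−1.38), whose liver-made product stabilises circulating IGF complexes. The insulin genes Ins1 and Ins2 and the binding protein gene Igfbp1 had no row. The per-length difference of Igf1 minus Igf2, the other IGF gene, was −1.67 on the log2 scale and between −1.67 and −0.22 over the lengths tried. However, 76.0% of the 31-base words of the longest coding transcript of Igf2 are shared with the annotated gene Gm49394. Pseudoaligned reads could be divided between these genes if both were in the study's index. Gm49394 had no row, and that index was not given in the sources used here. For Igf1 the shared words came to 0.27%.

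Among the receptors, Igf2r had the highest level, followed by Insr and Igf1r. Igf2r, the cation-independent mannose 6-phosphate receptor that takes up IGF-II and delivers it to lysosomes, reached 7.47 (177 CPM) and ranked 649. Insr, the insulin receptor, reached 6.10 (68.7 CPM) and ranked 2033. Igf1r, the tyrosine kinase receptor of IGF-I, reached 5.01 (32.1 CPM) and ranked 4372. The receptor that clears ligand was thus the most abundant of the 3 transcripts, and the kinase receptors were lower.

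Per length, Igf2r was 7.08-fold higher than Igf1r (2.82 on the log2 scale), with 3.04-fold as the smallest ratio over the lengths tried. Igf2r was 2.72-fold higher than Insr per length, and 1.43-fold higher at the smallest ratio. Igf1r was lower than Insr by every length, with a ratio of Igf1r to Insr from 0.206 to 0.469. With the 11409-nucleotide transcript of Igf1r, the longest of the 10 genes, its per-length level of 1.49 fell under the median of all genes although its level was above 68.8% of them. The receptor genes lie at chr17:12682406-12769664 (Igf2r, minus strand), chr8:3122061-3279617 (Insr, minus strand) and chr7:67952827-68233668 (Igf1r, plus strand) of GRCm38. Insrr, the insulin receptor-related receptor gene, had no row.

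Irs1 encodes the adaptor that links both kinase receptors to PI3K. Its level was 5.27 (38.5 CPM, rank 3722) and its per-length level was 2.07 log2 CPM per kilobase, a little under the median of all genes. Of its transcript words 30.7% are shared, nearly all with Gm9747, a gene annotated as protein-coding that overlaps Irs1 at chr1:82233101-82291416 (minus strand, GRCm38) and has a row of its own. The Irs1 value is uncertain to that extent. Irs2, its closest relative, was 0.63 lower on the per-length log2 scale, a ratio of Irs1 to Irs2 of 1.55, and the ratio reached 2.40 with other lengths.

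In the list of receptor adaptors, 9 of 10 genes had a row, 7 lay above the median by level and 4 lay above it per length. Grb2, which couples receptors to Ras signalling, and Grb10, an adaptor that restrains insulin and IGF receptors, were highest at 5.22 and 5.10 log2 CPM per kilobase. Irs2 (1.44) and Gab1 (1.07) were lowest, and Irs4 had no row. All 9 genes of the PI3K list had a row, 7 of them above the median by level and 5 above it per length. Its highest members per length were the regulatory subunit genes Pik3r2 (3.90) and Pik3r1 (3.46), and its lowest were the lipid phosphatase gene Inpp5d (1.53) and the catalytic subunit gene Pik3cb (1.06).

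Akt1, which encodes a serine/threonine kinase at the centre of the pathway, was the highest of the 10 genes per length at 5.55 log2 CPM per kilobase (46.7 CPM per kilobase). Its level was 6.97 (126 CPM, rank 997), and the gene lies at chr12:112653821-112674884 on the minus strand (GRCm38). By level Akt1 stood under Igf2r and Igf1, and its longest coding transcript, 2690 nucleotides, was the shortest of the 10. Akt2, the isoform known for insulin-stimulated glucose uptake in muscle, was higher than Akt1 under every length, with a ratio of Akt1 to Akt2 from 0.390 to 0.658. Of the words of Akt2, 21.4% are shared with the pseudogene Akt2-ps. All 5 genes of the list of AKT and its phosphatases had a row, and 2 were above the median on either scale. The genes of the phosphatases that inactivate AKT were lowest in their list, Phlpp1 at 1.01 and Phlpp2 at −0.00 log2 CPM per kilobase.

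Tsc2 encodes tuberin, the GTPase-activating subunit of the TSC complex, and it was the lowest of the 10 genes on every scale. Its level was −1.07, a geometric mean of 0.477 CPM, and it ranked 13680 of 14015 genes. Only 335 genes (2.39%) had a lower level. Levels under 0, that is, under 1 CPM, were listed for 1198 genes (8.55%), and Tsc2 was the sole gene of the 82 pathway genes with a row among them. Per length its value was −3.72 log2 CPM per kilobase, or 0.0761 CPM per kilobase. The study's methods kept genes with more than 1 CPM in at least 3 samples, so if the mean covered the same samples, they lay on both sides of that limit. Which samples those were was not analysed here.

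The other genes of the TSC complex were higher than Tsc2 both by level and per length. Tsc1, which encodes hamartin, the partner that stabilises tuberin, had a level of 5.24 and was 64.5-fold higher than Tsc2 per length, between 56.2-fold and 123-fold over the lengths tried. Tbc1d7, the gene of the third subunit, had a level of 3.56, under the median of all genes, 4.03. Per length it was 6.96 higher than Tsc2 on the log2 scale, between 5.88 and 7.25 over the lengths tried. Rheb, the GTPase on which the complex acts, was 9.37 higher, between 8.19 and 10.86, and led the list at 5.66 log2 CPM per kilobase. These differences set pooled means against a Tsc2 level under 1 CPM and need not hold in any sample. An offset added before the log, which the methods do not give, would change them. Rhebl1, a relative of Rheb, came just before Tsc2 in the order of the list, at 0.06 log2 CPM per kilobase. Its level was also low, at 0.39. All 5 genes of the list had a row, with 2 above the median by level and 3 above it per length.

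The surroundings of Tsc2 are given because they bear on how reads are assigned to it. It lies at chr17:24595816-24632630 on the minus strand (GRCm38) and has 22 annotated transcripts, of which 8 are coding. Its 3′ end overlaps Pkd1, on the opposite strand, by 693 nucleotides. All of the 10.6% of Tsc2 words that other transcripts share belong to Pkd1. Pkd1 had a level of 4.54 and 0.72 log2 CPM per kilobase. At the 5′ end, 49 nucleotides separate Tsc2 from Nthl1, which runs the other way and had a level of 1.42. Both neighbours thus had higher levels than Tsc2, and whether reads of Tsc2 were counted elsewhere was not tested.

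The promoter windows of Igf1 and Tsc2 are shown because these genes lie near the top and at the bottom of the levels and their windows differ in base composition. Each window runs from 250 bases before to 50 bases after a RefSeq start (GRCm38.p6) and is written 5′ to 3′ on the gene's strand, with every CG dinucleotide in capitals. The Igf1 window lies wholly inside the annotated gene, chr10:87858265-87937042. It covers an internal start, and the 5′ end of the annotated gene is not shown.
Igf1, chr10:87860861-87861160, plus strand: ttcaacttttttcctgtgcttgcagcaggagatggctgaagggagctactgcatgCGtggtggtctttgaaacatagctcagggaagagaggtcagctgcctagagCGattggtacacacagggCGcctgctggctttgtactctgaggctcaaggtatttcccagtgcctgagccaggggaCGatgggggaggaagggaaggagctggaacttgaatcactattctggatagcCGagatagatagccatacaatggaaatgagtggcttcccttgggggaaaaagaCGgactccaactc
Tsc2, chr17:24632578-24632877, minus strand, also covering the start of Nthl1: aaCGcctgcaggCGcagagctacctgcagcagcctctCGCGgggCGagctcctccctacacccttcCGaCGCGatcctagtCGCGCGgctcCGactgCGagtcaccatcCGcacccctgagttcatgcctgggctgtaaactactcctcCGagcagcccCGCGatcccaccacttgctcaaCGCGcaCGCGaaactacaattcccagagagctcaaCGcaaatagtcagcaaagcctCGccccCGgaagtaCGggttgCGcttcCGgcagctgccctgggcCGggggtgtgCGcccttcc
The Tsc2 window held 29 CG dinucleotides, more than 87.1% of 32851 windows, and the Igf1 window held 6, more than 43.6% of them. These 32851 windows were not limited to genes with a row. The gene with the lowest level therefore had a CG-rich start, and the internal start shown for Igf1 was not CG-rich. This pair does not stand for the other well represented genes. Igf2r, the highest by level, had a window with 34 CG dinucleotides, more than 92.3% of windows. Akt1, the highest per length, had 42 in its downstream window and 8 in the other. A relation between level and CG count was not tested.

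RefSeq windows were found for 9 of the 10 genes, 10 windows in all because Akt1 has a pair. The median of all 32851 windows was 7 CG dinucleotides (quartiles 3 and 20), and 9 of the 10 windows held more. Igf1r (48), Rictor (47) and the downstream Akt1 window (42) held the most. The GC box, GGGCGG on either strand, was present in 6 of the 10 windows and in 35.7% of all windows. The TATA box, TATAAA on either strand, was present in 0 of the 10 and in 13.6% of all windows. Such matches describe the letters of the window and nothing about a bound factor.

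Mtor, Rptor and Rictor encode the kinase and the subunits that define its complexes: RAPTOR for mTOR complex 1 and RICTOR for mTOR complex 2. Mtor had a level of 5.53 (46.3 CPM, rank 3108) and Rptor one of 5.58 (47.9 CPM, rank 2987). Rictor was lower at 4.03 (16.3 CPM, rank 7011). Rptor was 4.15-fold higher than Rictor per length, between 3.76-fold and 7.70-fold over the lengths tried, and Mtor was 3.09-fold higher than Rictor, between 1.90-fold and 5.53-fold. Mtor and Rptor were close, with a per-length ratio of Mtor to Rptor of 0.744, which fell to 0.506 with other lengths. Without a spread over mice, that difference cannot be set against error.

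The 3 genes share few words with other transcripts. Shared words came to 0.88% for Rptor, all with Rptoros, an antisense gene inside it, 0.15% for Rictor and 0 for Mtor. They are found at chr4:148448611-148557683 (Mtor), chr11:119602905-119899576 (Rptor) and chr15:6708379-6800401 (Rictor), each on the plus strand of GRCm38.

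All 9 genes of the mTOR complex list had a row, and 5 were above the median on either scale. Akt1s1, which encodes PRAS40, an inhibitory partner of complex 1, was highest at 5.997 log2 CPM per kilobase and 8.79-fold above Rptor, between 7.22-fold and 11.4-fold over the lengths tried. Deptor, an inhibitor found in both complexes, followed at 4.09 and was 3.16-fold above Mtor per length, a ratio that reached 19.7 with other lengths. Rictor (0.81) and Prr5l (−0.35), which encodes a partner of complex 2, were lowest. Mapkap1, which encodes the complex 2 subunit SIN1, was 7.89-fold above Rictor per length, and up to 15.1-fold above it with other lengths. The ratio of Mlst8, a subunit shared by both complexes, to Mtor was 0.578 and rose to 2.04 with other lengths, so no order is given for that pair. Of the words of Mlst8, 22.4% are shared with Bricd5.

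The outputs of AKT and mTOR all had rows. All 12 were above the median of all genes by level, and 11 were above it per length. Rps6, a ribosomal protein phosphorylated by S6 kinase, was highest at 8.69 log2 CPM per kilobase, although 84.9% of its words are shared with Rps6-ps4. Gsk3a, a kinase that AKT inhibits, followed at 5.40. Foxo3 (2.43) and Foxo1 (1.76), transcription factors that AKT keeps out of the nucleus and that promote muscle atrophy, were lowest, and Foxo1 was the gene under the median.

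Amino acids reach mTOR complex 1 through the Rag GTPases, their lysosomal anchor and their upstream regulators. In this list 21 of 23 genes had a row, 15 above the median by level and 16 per length. The anchor genes Lamtor2 (6.41) and Lamtor1 (6.15) were highest in log2 CPM per kilobase. Depdc5 (0.68), part of the GATOR complex that inactivates the Rag GTPases, and Rragb (−0.39), one of the Rag genes, were lowest. Lamtor5 and Sesn3 had no row.

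**Figure D3:**
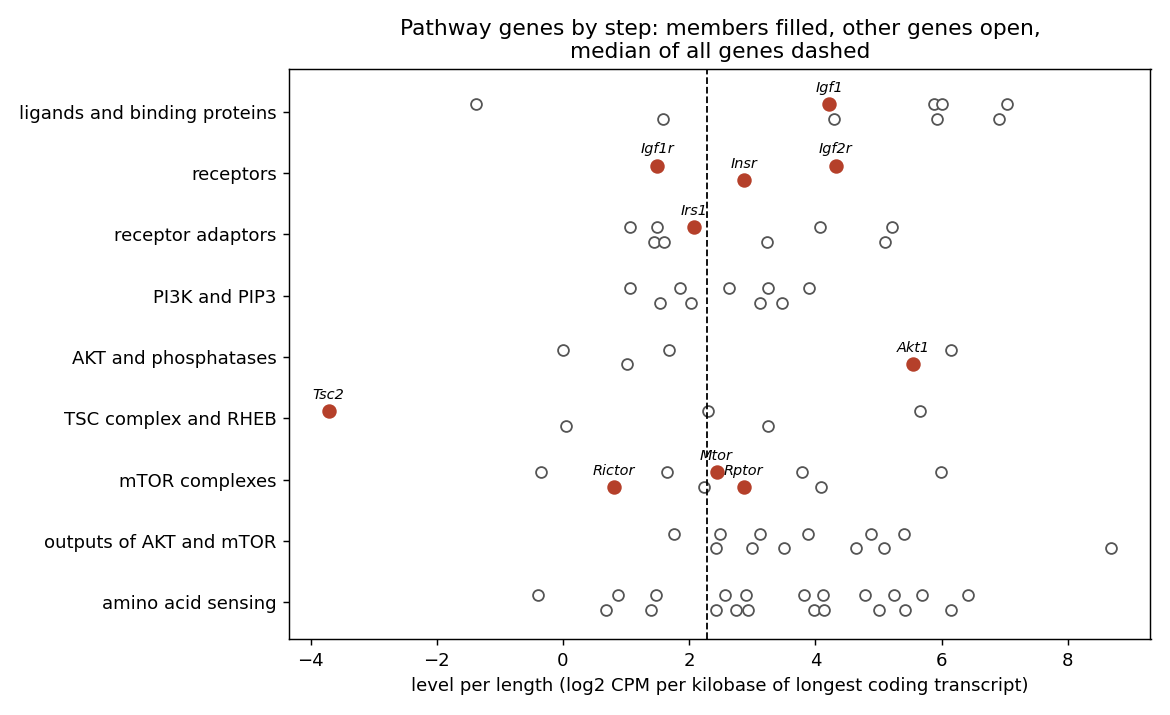
Level per length (x axis, log2 CPM per kilobase of the longest coding transcript) of the 82 pathway genes with a row, 1 point a gene, by step of the pathway (y axis). Filled red points are the 10 named genes and open points are the other 72, points are offset vertically only for legibility, and the dashed line is the median of all genes, 2.28. Tsc2 lies farthest left at −3.72, while the outputs of AKT and mTOR lie right of the dashed line except Foxo1 at 1.76.

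Over all lists, 82 of 89 pathway genes had a row, 60 (73.2%) were above the median level of all genes and 55 (67.1%) were above the median per length. Leaving out the 10 genes, 52 of 72 (72.2%) were above it by level and 49 (68.1%) per length. The 10 genes, with 8 by level and 6 per length, were not tested against the other 72.

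The labelled tissue was checked against its markers. All 6 muscle fibre genes had levels from 10.70 to 14.65 and ranks from 2 to 46. The 4 genes of satellite cells and myoblasts lay between 2.17 and 6.37, the 5 macrophage genes between 4.71 and 6.86, the 3 fibroblast genes between 5.73 and 11.67 and the 3 endothelial genes between 5.64 and 6.53. Each of these cell types can express IGF and mTOR pathway genes, and their part in the levels above was not tested. Of 8 eosinophil genes only Ear2 had a row (0.13), and 60.5% of its words are shared with related genes, while Siglecf, Epx, Prg2, Ccr3, Il5ra, Ear1 and Ear6 had none. Of the liver genes, Alb (−1.41) and Cps1 (−3.16) were near the bottom of the table and Apoa2 had no row.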

How the data were processed

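RNA of day 7 injured quadriceps, 3 WT and 3 ΔdblGATA samples, was prepared with polyA selection. Per its methods, the study pseudoaligned paired-end reads with Kallisto, assigned transcripts to genes with ensembldb, required more than 1 CPM in 3 or more samples of each gene, scaled by TMM and used limma; the Kallisto version and index were not given in the sources used here. The authors deposited 1 table of 14016 rows, 1 of them without a symbol and left out. Its level column holds the mean log2 CPM per gene, pooled over samples that the table does not name. The other columns hold the authors' own comparison of the genotypes (log2 fold change, moderated t, p-values and log-odds) and were not used. No values per sample were analysed here, so the limma fit planned for the genotypes was not run and depth is unknown. The number of replicates behind a level could not be checked.

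Level per length was the level minus log2 of the longest coding transcript in kilobases (GENCODE M21, GRCm38). The submitters' processing notes list GRCm39 and mm39, a build not used here, so positions are those of GRCm38. Rows were matched by current symbol (13458) or older symbol (487), 99.5% in all; older symbols were added after the table was seen. Castor1 and Castor2 were matched as Gatsl3 and Gatsl2, and Adgre1 as Emr1. Shared words are 31-base words of a gene's longest coding transcript that transcripts of other genes also hold, on either strand. A geometric mean CPM is 2 to the level, with no allowance for an offset added before the log. Named were the 10 genes, the 2 highest and 2 lowest per length in each pathway list and list genes without a row; other genes compared with them (Igf2, Tsc1, Mlst8, Mapkap1, Pkd1 and Nthl1) were chosen after their values were seen. The genes and lists were chosen with earlier results of these data known. Scripts used Python 3.11.15, numpy 2.4.6 and pandas 2.3.3. The rank function was tested with values planted among the real levels, and the per-length and shared-word functions on simulated data.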

Additional observations from a re-analysis of the deposited data

How the results depend on the processing

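No paired analysis was possible because only a mean over samples was used, with no value per sample. For the same reason the leave-one-out fits, the other pseudocount and the fit without a filter were not run. With protein-coding genes only, the counts above the median did not move (8 of the 10 genes, 60 pathway genes). With levels of at least 1, Tsc2 dropped out, 9 of the 10 genes and 78 pathway genes had a row, and 8 and 53 were above the median. Per length, 6 and 55 were above it. In the order per length, 10 genes kept their place with the longest transcript of any kind, 8 with the median coding transcript, where Igf1 and Igf2r changed places, and 4 with the coding length, where the order was Igf1, Akt1, Igf2r, Insr, Rptor, Irs1, Igf1r, Mtor, Rictor and Tsc2. Of 30 per-length values under other lengths, 16 differed from those above, all 16 of them higher, as shorter lengths must give.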

Other observations

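The bound below is arithmetic on the study's filter and the mean level of Tsc2, not an observed value. If the mean covered 6 samples and 3 of them were above 1 CPM, the other 3 would average at most −2.14 log2 CPM, or 0.228 CPM. The bound does not say which samples were low and carries no direction between WT and ΔdblGATA mice. The lowest level in the table, −4.08, would need an average of at most −8.15 log2 CPM, or 0.00351 CPM, in the other 3. TMM scaling was applied after the filter, and the samples behind the filter and the mean are not named in the table. The methods do not give any offset added before the log, which would change the CPM values and the differences from Tsc2 stated here. None of these points was tested.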
